A study of Mus musculus with 6 samples.

Results

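The genes that make sialic acid, attach it to sugar chains, remove it and read it were compared in cochlear tissue between WT mice and mice without *Cmah*. Members were taken by gene symbol, without use of their measured values: the sialyltransferases of the *St3gal*, *St6gal*, *St6galnac* and *St8sia* families, the sialidases *Neu1* to *Neu4*, the symbols that begin with *Siglec*, and *Cmah*, *Cmas*, *Gne*, *Nans*, *Nanp*, *Npl*, *Slc35a1*, *Slc17a5*, *Cd22* and *Cd33*. They came to 37 genes on 57 probes, of 18138 gene symbols on the 25697 probes of the array. The study hybridized total RNA of 3 WT and 3 *Cmah*-null mice to Illumina MouseRef-8 v2 bead arrays, 1 array per sample. All 6 mice were 12 months old, of strain C57BL/6 in the labels and C57BL/6J in the methods, and the labels give no treatment. *Cmah*-null mice carry a constitutive knockout, so the gene is lost in every tissue and not in the cochlea alone. The deposited columns name the second group only as "old", and they were matched to the *Cmah*-null samples by elimination and by their number.

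Sialic acids are acidic sugars that cap the outer ends of glycoprotein and glycolipid chains. They are built in the cytosol from UDP-GlcNAc by way of N-acetylmannosamine, activated to CMP-sialic acid in the nucleus, carried into the Golgi, and joined to galactose, N-acetylgalactosamine or another sialic acid by sialyltransferases, each of which makes a particular linkage. *Cmah* encodes the hydroxylase that turns CMP-Neu5Ac into CMP-Neu5Gc, so mice that lack it have Neu5Ac but make no Neu5Gc. Siglecs are receptors, mostly of leukocytes, that bind sialic acids, and some of them tell Neu5Ac from Neu5Gc. Gangliosides, which carry sialic acid, and polysialic acid on NCAM are known for their abundance in neural tissue. The comparison asks whether the genes around the missing enzyme stood at other levels in the aged cochlea.

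The results turned on few probes, and the first 30 of the 50 bases of each are shown, 5′ to 3′ in lower case, as the deposited annotation gives them. They are the probe of the deleted gene, the probe of the member that was called higher, and the 3 probes of the member that was called lower, the last of which gave no detected signal on any array.
Cmah: gaatggtatttgacccttggttaattggcc
Siglec1: gcatgacagggtcttagttttccctcctgg
St8sia4, brightest probe: gcggttttttgattgttggtctaggttgtg
St8sia4, second probe: gcctttcttataccatctgtggaaaggaag
St8sia4, undetected probe: tatatgtattcatattctggacaaggatag
The *Cmah* probe starts at base 563 of the transcript it was designed on. The *Siglec1* probe lies on chromosome 2, in band 2qF1, and starts at base 6120 of its transcript. The 3 *St8sia4* probes start at bases 6455, 6632 and 2991 of 1 transcript of a gene in band 1qD. The genome build of the probe positions is not named in the annotation, so no genome coordinates are given.

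Signals are given as the authors' quantile-normalized log2 values, WT replicates 1, 2 and 3 first and *Cmah*-null replicates 1, 2 and 3 after them. A probe was taken as detected on an array where its detection p, against the negative controls of that array, was under 0.05. Where a gene had several probes, the one with the highest mean signal stood for it, and 12 members had several. By this measure 23 members were detected on all 6 arrays, 28 on at least 3 and 3 on 1 or 2. The 6 members detected on no array were *Nanp*, *St6gal2*, *St8sia6*, *Npl*, *Siglece* and *Siglec5*, the last of which RefSeq now names *Siglecf*. A probe's level is not comparable with that of another probe, so levels are compared only between arrays.

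Arrays had 13873 to 15223 detected probes and a median of 32 to 39 beads per probe. *Cmah*-null replicate 3 stood apart: the SD of its log2 differences from each other array was 0.56 to 0.64, against 0.13 between *Cmah*-null replicates 1 and 2 and 0.31 to 0.44 among the other pairs. Replicates 1 and 2 of *Cmah*-null were far closer than any other pair. Over probes detected on all arrays, their squared difference was 2.8 times that of bead error, against 24 to 115 for other pairs. They were counted as separate samples. If they are not independent, n = 3 overstates the *Cmah*-null group. Of the 10 hair cell markers, *Pou4f3*, *Slc26a5*, *Atoh1* and *Strc* were detected on no array and 5 were detected on all, while all 8 skeletal muscle markers were detected on all 6 arrays. In whole tissue, fewer cells of a type and less RNA per cell cannot be told apart. The methods give 3 mice per group and do not say whether tissue was pooled.

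No member passed an adjusted p under 0.05 in limma over all probes, and the smallest adjusted p among members was 0.25. Over all symbols the share that passed was 0.0%. At an unadjusted p under 0.05, limma passed 3 of the 37 members, against 9.07% of all symbols. The study's limits, at least 1.5-fold with an unadjusted p under 0.05, are what "called" means here. *Siglec1* was the 1 member called higher in *Cmah*-null, where 1.61% of all symbols were, and *St8sia4* was the 1 called lower, where 1.46% were. The other 35 members differed by less than 1.5-fold, and 25 of the 37 differed by less than 0.2 on the log2 scale.

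Of the 37 members, 24 had a higher mean in *Cmah*-null and 13 a lower one, where 9626 and 8512 of all 18138 symbols had. Of the 23 members detected on every array, 13 had a higher mean and 10 a lower one. The median log2 difference of the 37 members, *Cmah*-null minus WT, was 0.06, against 0.01 over all symbols. The median size of the difference, sign aside, was 0.13 in both. Among the 23 members detected on every array it was 0.15, against 0.23 over the 9907 symbols detected on every array. *Siglec1*, *Gne* and *St8sia2* had *Cmah*-null values that all lay above WT, and *St8sia4* and *St3gal6* had values that all lay below. Such non-overlap held for 10.0% of all symbols in the higher direction and 6.67% in the lower. The plot of differences by role shows these members among the rest.

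**Figure D1:**
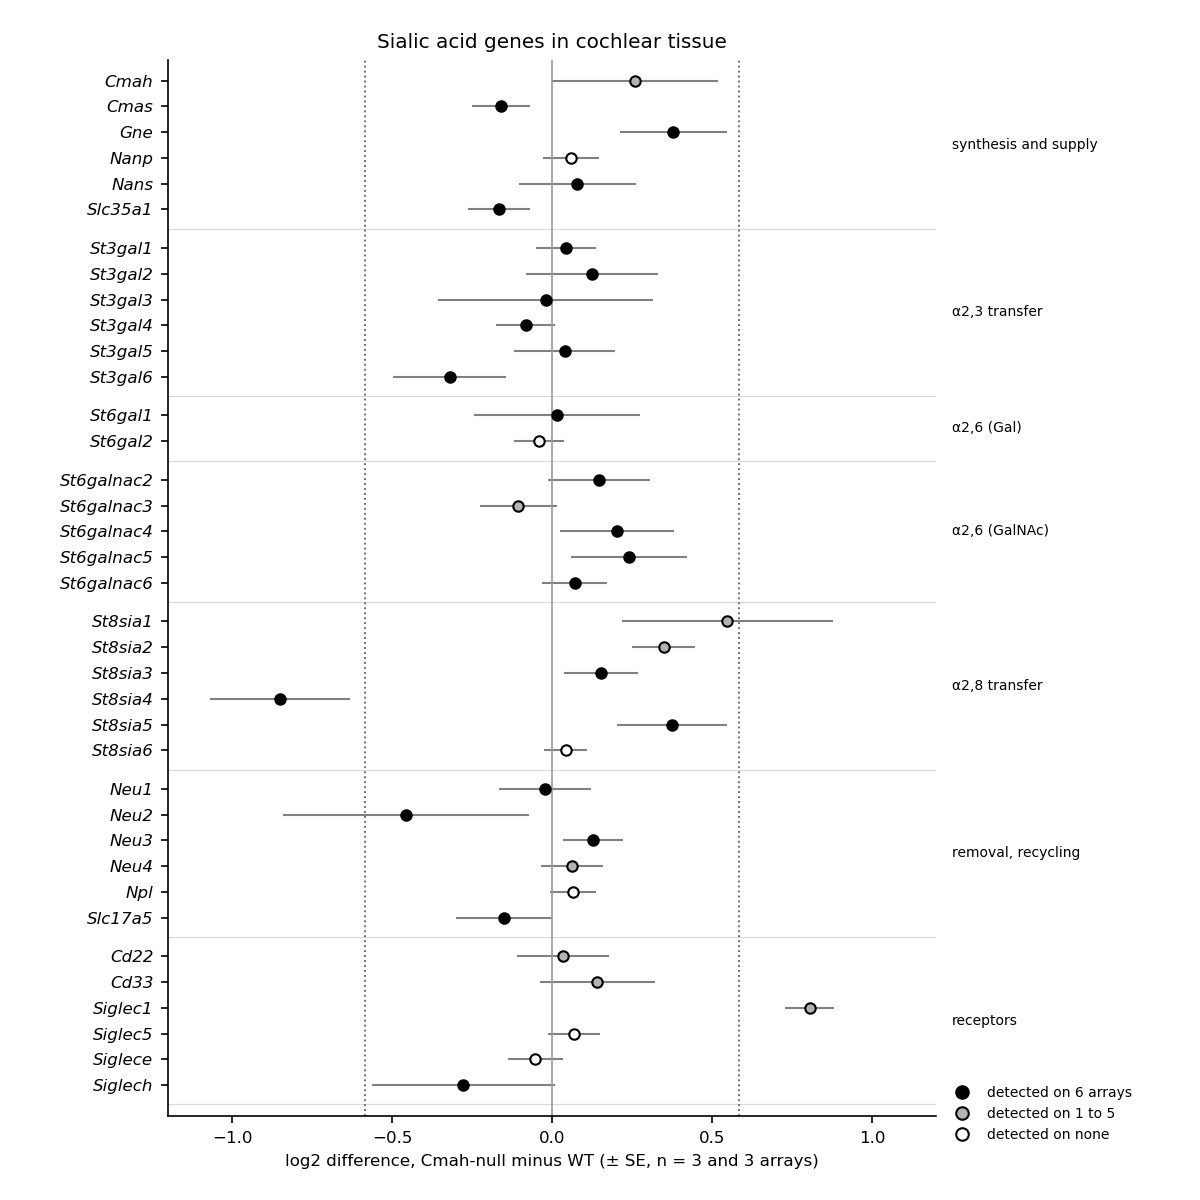
Difference between the group means of each of the 37 members on the log2 scale, Cmah-null minus WT, with its limma standard error (3 arrays per group), arranged by role. Dotted lines mark 1.5-fold in each direction, and the fill shows on how many arrays the probe was detected. Siglec1 at 0.81 and St8sia4 at -0.85 lie outside the lines, and the other 35 lie within them.

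Of the 6 genes of synthesis and supply, none was called, and *Gne* was the 1 whose groups did not overlap. *Gne* encodes the bifunctional epimerase and kinase that starts sialic acid synthesis and sets its rate. Its signals were 9.40, 9.17 and 9.34 in WT and 9.41, 9.63 and 10.01 in *Cmah*-null. *Cmah*-null replicate 1 exceeded the highest WT array only slightly, and *Cmah*-null replicate 3 was the highest of the 6. The difference was 0.38 ± 0.17 (SE, n = 3 and 3; limma adjusted p = 0.61), and without *Cmah*-null replicate 3 it was 0.22.

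The steps after *Gne* gave small differences in both directions. *Nans*, the synthase that joins N-acetylmannosamine 6-phosphate to phosphoenolpyruvate, read 9.92, 10.40 and 10.33 in WT and 10.25, 10.07 and 10.57 in *Cmah*-null. The groups overlapped, with a difference of 0.08 ± 0.18. *Nanp*, the phosphatase of the next step, read 6.97, 7.07 and 7.11 in WT and 7.06, 7.23 and 7.04 in *Cmah*-null, not well above background on any array, so its values are background readings and show no level. *Cmas*, which activates sialic acid with CMP, read 11.90, 11.88 and 11.76 in WT and 11.67, 11.58 and 11.81 in *Cmah*-null. *Cmah*-null replicate 3 lay within the WT range while the other two lay below it, and the difference was -0.16 ± 0.09. *Slc35a1*, the transporter that brings CMP-sialic acid into the Golgi, read 8.07, 7.90 and 7.92 in WT and 7.82, 7.91 and 7.67 in *Cmah*-null. These groups overlapped too, with a difference of -0.16 ± 0.10. The limma adjusted p was 0.92 for *Nans* and 0.68 for both *Cmas* and *Slc35a1*.

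*Cmah* itself did not separate the genotypes. Its probe read 7.27, 7.28 and 7.87 in WT and 7.95, 7.98 and 7.27 in *Cmah*-null. It was detected on WT replicate 3 and on *Cmah*-null replicates 1 and 2, and it was not well above background on the other 3 arrays. The raw bead signals of those detected arrays were 222, 273 and 275, and those of the others were 140 to 168. The difference was 0.26 ± 0.26 (SE, n = 3 and 3; limma adjusted p = 0.80). Which part of the gene the allele removes is not given in the sources used here, so whether the probe lies in that part is not known, and its signal neither bears out nor contradicts the labels. With 3 arrays undetected, this difference is partly between background readings. Within the arrays of few beads (WT replicate 1, *Cmah*-null replicates 1 and 2), where WT was not detected, the level was at least 1.44-fold higher in *Cmah*-null. Within those of many beads (WT replicates 2 and 3, *Cmah*-null replicate 3) WT replicate 3 was the only array with a detected signal.

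The transferases that add sialic acid in α2,3 linkage to galactose, *St3gal1* to *St3gal6*, were detected on all 6 arrays, and none was called. *St3gal6*, which acts on type II chains such as those of selectin ligands, read 11.86, 11.73 and 11.87 in WT and 11.71, 11.68 and 11.11 in *Cmah*-null. The groups did not overlap, but the gap between WT replicate 2 and *Cmah*-null replicate 1 was narrow and *Cmah*-null replicate 3 lay well below the rest. The difference was -0.32 ± 0.18 (SE, n = 3 and 3; limma adjusted p = 0.67), it was -0.13 without *Cmah*-null replicate 3, and it was 0.17 when arrays were scaled to a common median in place of quantile normalization.

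The remaining α2,3 transferases had overlapping groups. *St3gal2*, a transferase of O-glycans and gangliosides, read 9.54, 9.51 and 9.39 in WT and 9.40, 9.35 and 10.07 in *Cmah*-null. *St3gal4*, which acts on glycoproteins, read 8.60, 8.53 and 8.71 in WT and 8.51, 8.43 and 8.65 in *Cmah*-null. *St3gal1*, which caps core 1 O-glycans, read 8.54, 8.74 and 8.46 in WT and 8.64, 8.60 and 8.62 in *Cmah*-null. All these arrays fell within narrow ranges, apart from *Cmah*-null replicate 3 for *St3gal2*. *St3gal5*, the GM3 synthase with which most ganglioside synthesis starts, read 11.34, 11.44 and 11.12 in WT and 11.48, 11.49 and 11.05 in *Cmah*-null. The differences were 0.12 ± 0.21, -0.08 ± 0.09, 0.04 ± 0.09 and 0.04 ± 0.16 for *St3gal2*, *St3gal4*, *St3gal1* and *St3gal5*. *St3gal3*, described after its values were seen, had a difference of -0.02 ± 0.33 because *Cmah*-null replicate 3 read 11.43, above the WT range of 10.52 to 10.80, while *Cmah*-null replicates 1 and 2 read 10.16 and 10.39, below it.

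Of the α2,6 transferases, *St6gal1*, which caps N-glycans and makes the ligand of CD22, differed by 0.02 ± 0.26, and *St6gal2* was detected on no array. The *St6galnac* enzymes add sialic acid to N-acetylgalactosamine of O-glycans and gangliosides, and 4 of the 5 measured had a higher mean in *Cmah*-null, with none called. *St6galnac5*, known from brain gangliosides, read 7.79, 7.52 and 8.19 in WT and 8.07, 7.96 and 8.20 in *Cmah*-null. *St6galnac4* read 9.16, 9.34 and 9.08 in WT and 9.19, 9.23 and 9.77 in *Cmah*-null. *Cmah*-null replicate 3 was the highest array for both of these, and the groups overlapped for both. *St6galnac2* read 10.58, 11.06 and 11.06 in WT and 10.98, 10.96 and 11.20 in *Cmah*-null. *St6galnac6* read 7.81, 7.85 and 7.72 in WT and 7.71, 7.86 and 8.02 in *Cmah*-null. Their differences were 0.24 ± 0.18, 0.20 ± 0.18, 0.15 ± 0.16 and 0.07 ± 0.10 in the order named, with limma adjusted p from 0.74 to 0.87. *St6galnac3* was detected on WT replicate 1 only. The probes of 1 gene did not always move together: another probe of *St6galnac4*, also detected on all 6 arrays, differed by -0.01, and another of *St6galnac6* by -0.07.

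**Figure D2:**
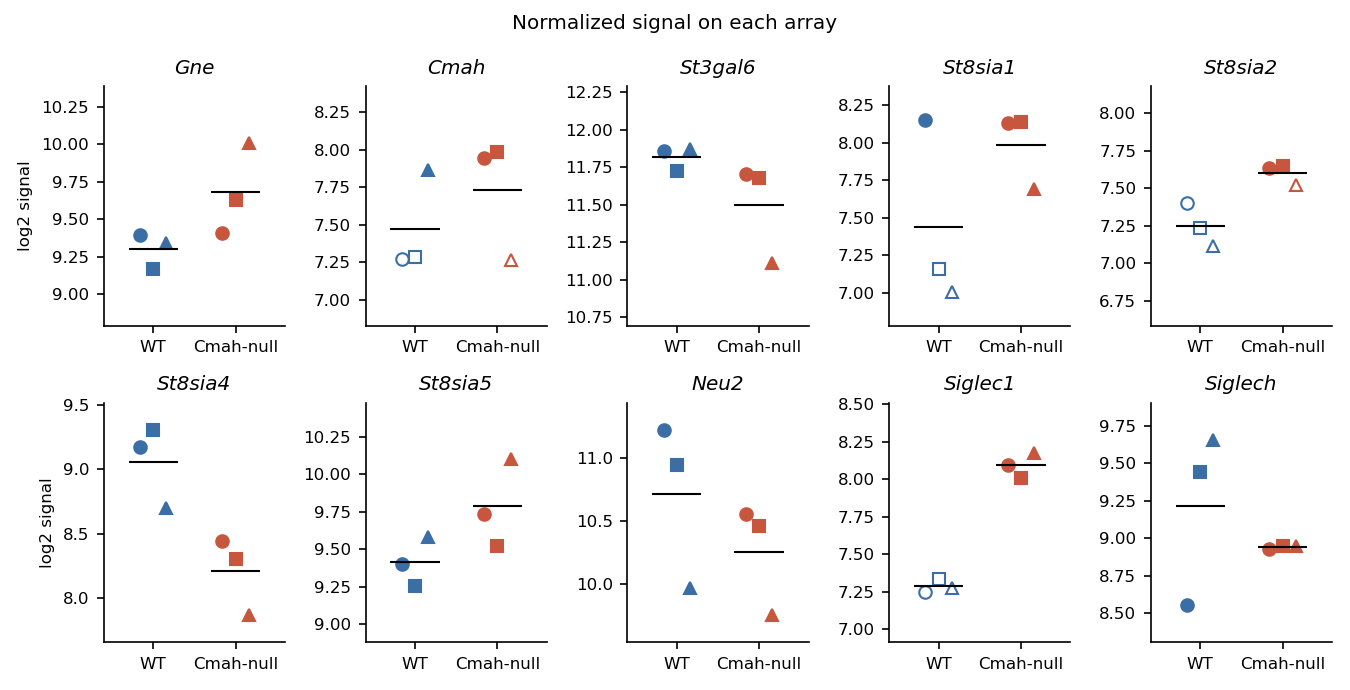
Normalized log2 signal of 10 members on each of the 6 arrays, with WT in blue and Cmah-null in red; each panel has its own vertical axis, which does not start at 0. Circles, squares and triangles are replicates 1, 2 and 3, bars are group means, and open symbols mark arrays on which the probe was not detected. Siglec1 was detected on the 3 Cmah-null arrays and no WT array, and St8sia4 was lower on every Cmah-null array than on any WT array.

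The α2,8 transferases, which extend 1 sialic acid with another, held the largest spread of differences of any role, from -0.85 to 0.55. *St8sia4* encodes a polysialyltransferase that builds the polysialic acid of NCAM, and together with *St8sia2* makes nearly all of it. Its signals were 9.17, 9.30 and 8.70 in WT and 8.44, 8.31 and 7.87 in *Cmah*-null. Every *Cmah*-null array lay below every WT array, and replicate 3 was the lowest of its group in both genotypes. The difference was -0.85 ± 0.22, a 1.80-fold lower level (SE, n = 3 and 3; limma unadjusted p = 0.0085, adjusted p = 0.45).

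The second *St8sia4* probe gave the same direction. It read 7.90, 8.40 and 8.03 in WT and 7.71, 7.57 and 7.37 in *Cmah*-null, again without overlap, and was detected on all arrays but 1 of the *Cmah*-null group. Its difference was -0.56 ± 0.16 (SE, n = 3 and 3; limma unadjusted p = 0.013, adjusted p = 0.48). The probe at base 2991 was detected on no array. Within the arrays of few beads the brightest probe differed by -0.80 and within those of many beads by -1.13. Raw signals were 619, 533 and 347 in WT and 424, 363 and 214 in *Cmah*-null, which overlap. With arrays scaled to a common median the difference was -0.63 (limma unadjusted p = 0.068) and not called, but under that scaling the median difference over probes detected on 6 arrays was 0.30 in place of 0.03. Less that median, the difference was -0.93, against -0.88 with the deposited values less theirs. Single probes did not all move by the median, so neither value tests the call. Under the other 13 alternatives *St8sia4* stayed called.

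Brown fat markers, *Ucp1*, *Cidea*, *Cox8b* and *Elovl3*, had lower means in *Cmah*-null, as *St8sia4* had. Of the 4, 3 were called lower, where 1.46% of all symbols were. Their mean log2 signal per array was 12.37, 12.00 and 11.89 in WT and 10.86, 10.92 and 9.83 in *Cmah*-null. The exact two-sided permutation p was 0.1, the smallest that 3 against 3 arrays allow. The marker list was chosen with earlier results of these data known, so this p gives no independent support. The lowest array was *Cmah*-null replicate 3 for these markers as for *St8sia4*. The highest was WT replicate 1 for these markers and WT replicate 2 for *St8sia4*. All 7 neuron markers measured, 7 of the 8 myelin markers and all 8 skeletal muscle markers also had lower means in *Cmah*-null. None of those was called. Of the neuron markers, *Snap25* and *Nefl* were detected on no array, so their values are background readings. Over all 18138 symbols, 8512 had lower means. The part of brown fat or of these other cell types in the *St8sia4* difference was not tested. Of the proteins that carry polysialic acid, *Ncam1* differed by 0.51 ± 0.32 (limma adjusted p = 0.70). *Nrp2* was detected on the 3 WT arrays and no *Cmah*-null array, and was at least 1.16-fold lower in *Cmah*-null (fitted difference -0.29 ± 0.09, limma adjusted p = 0.51).

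*St8sia2*, the other polysialyltransferase, is described because its unadjusted p was under 0.05, and so after its values were seen. It read 7.40, 7.24 and 7.12 in WT and 7.64, 7.65 and 7.52 in *Cmah*-null, with no overlap. It was detected on no WT array and on *Cmah*-null replicates 1 and 2. Since no WT array and only 2 of 3 *Cmah*-null arrays measured it, no fold is given for its level. The fitted difference was 0.35 ± 0.10 (SE, n = 3 and 3; limma unadjusted p = 0.013, adjusted p = 0.48), opposite in sign to that of *St8sia4*.

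Of the other α2,8 transferases, *St8sia1*, the GD3 synthase, read 8.15, 7.16 and 7.00 in WT and 8.13, 8.14 and 7.69 in *Cmah*-null. WT replicate 1 was as high as the *Cmah*-null arrays, and the other WT arrays were not well above background. The difference was 0.55 ± 0.33 and not called (limma adjusted p = 0.69). Without WT replicate 1 the gene was called, but WT then has only an upper bound, and the level was at least 1.42-fold higher in *Cmah*-null. Within the arrays of few beads, where WT replicate 1 is the only WT array, the difference was -0.02, and within those of many no WT array was detected. The mean of the myelin markers was also highest on WT replicate 1, at 12.66 against 11.05 to 11.50 on the other 5. *Cmah*-null replicates 1 and 2, where *St8sia1* was about as high as on WT replicate 1, were not high for these markers. The part of the myelin markers in the level of *St8sia1* was not tested. *St8sia5*, which adds sialic acid to gangliosides, read 9.40, 9.26 and 9.58 in WT and 9.74, 9.52 and 10.10 in *Cmah*-null. These groups overlapped by *Cmah*-null replicate 2 alone, with a difference of 0.38 ± 0.17 (limma adjusted p = 0.62). *St8sia3* read 8.49, 8.17 and 8.14 in WT and 8.44, 8.35 and 8.48 in *Cmah*-null, a difference of 0.15 ± 0.12, and *St8sia6* was detected on no array.

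Removal and recycling genes gave no call. *Neu2*, the cytosolic sialidase, had the lowest difference of this role, with signals of 11.22, 10.95 and 9.96 in WT and 10.55, 10.46 and 9.75 in *Cmah*-null. Replicate 3 was the lowest array of each group, and the groups overlapped through WT replicate 3. The difference was -0.46 ± 0.39 (SE, n = 3 and 3; limma adjusted p = 0.77), and -0.03 with median scaling. Within the arrays of few and of many beads it was -0.72 and -0.70. *Neu2* is known for its expression in skeletal muscle, and the 8 muscle markers all had lower means in *Cmah*-null. Their mean log2 signal was 14.78, 14.95 and 13.97 in WT and 13.81, 13.80 and 14.11 in *Cmah*-null (exact two-sided permutation p = 0.2). *Cmah*-null replicate 3, the lowest array for *Neu2*, was thus the highest *Cmah*-null array for the muscle markers. The part of these markers in the *Neu2* values was not tested.

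The lysosomal sialidase *Neu1*, described after its values were seen, differed by -0.02 ± 0.14, with WT from 11.23 to 11.27 and *Cmah*-null replicate 3 highest at 11.54. *Neu3*, the sialidase of the plasma membrane that acts on gangliosides, read 7.68, 7.65 and 7.67 in WT and 7.76, 7.67 and 7.96 in *Cmah*-null. *Neu4* read 7.45, 7.57 and 7.52 in WT and 7.43, 7.60 and 7.71 in *Cmah*-null. Both sets of groups overlapped, with differences of 0.13 ± 0.09 and 0.06 ± 0.10. *Slc17a5*, sialin, which lets free sialic acid out of the lysosome, read 8.83, 9.07 and 9.39 in WT and 8.91, 8.92 and 9.01 in *Cmah*-null. Its WT arrays spread more widely than its *Cmah*-null arrays, which lay inside the WT range, and the difference was -0.15 ± 0.15. *Npl*, the lyase that cleaves free sialic acid, was detected on no array.

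Among the receptors, *Siglec1* was the member with the smallest p. It encodes sialoadhesin, a macrophage receptor that prefers Neu5Ac in α2,3 linkage and binds Neu5Gc poorly. Its signals were 7.25, 7.34 and 7.27 in WT and 8.09, 8.01 and 8.17 in *Cmah*-null. The 3 *Cmah*-null arrays lay close together and well above the 3 WT arrays, and raw bead signals separated in the same way, at 138, 172 and 168 in WT and 311, 281 and 253 in *Cmah*-null. The probe was detected on every *Cmah*-null array and on no WT array. The level in *Cmah*-null was at least 1.54-fold higher, set against the lowest detected signal of each WT array, since WT has only an upper bound. The fitted difference was 0.81 ± 0.08 (SE, n = 3 and 3; limma unadjusted p = 5.4e-05, adjusted p = 0.25). The difference was 0.80 within the arrays of few beads and 0.87 within those of many, and it was called under all 14 alternatives, where it ranged from 0.77 to 1.98 with limma adjusted p from 0.090 to 0.78.

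Macrophage markers were measured beside *Siglec1*. All 10 were detected on every array, 8 had higher means in *Cmah*-null and 2 lower, and none was called. *Cd68*, a lysosomal protein of macrophages, was the 1 of the 10 whose groups did not overlap, at 8.73, 9.01 and 8.93 in WT and 9.30, 9.39 and 9.16 in *Cmah*-null, a difference of 0.39 ± 0.11 (limma adjusted p = 0.47). The other 9 overlapped, and over all symbols 10.0% had *Cmah*-null values that all lay above WT. The mean log2 signal of the 10 was 8.90, 9.20 and 9.51 in WT and 9.63, 9.66 and 9.01 in *Cmah*-null (exact two-sided permutation p = 0.5). *Cmah*-null replicate 3, which was the highest array for *Siglec1*, was below WT replicates 2 and 3 for the mean of the markers, and their part in the *Siglec1* difference was not tested. *Tyrobp* and *Hcst*, adaptors through which activating immune receptors signal, differed by 0.02 ± 0.45 and 0.11 ± 0.15, and *Ptpn6* and *Ptpn11*, the phosphatases that inhibitory Siglecs recruit, by 0.17 ± 0.18 and -0.08 ± 0.08.

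The other receptors showed no such pattern. *Siglech*, a receptor of plasmacytoid dendritic cells and microglia, read 8.55, 9.44 and 9.66 in WT and 8.93, 8.95 and 8.95 in *Cmah*-null. The *Cmah*-null arrays lay together inside the wide WT range, and the difference was -0.28 ± 0.29 (limma adjusted p = 0.81). Without WT replicate 1 it was -0.61 and called, and the other 2 probes of the gene were detected on no array. *Siglech* was thus read by 1 probe alone, and whether other transcripts add to its signal was not tested. Within the arrays of few and of many beads the difference was 0.38 and -0.60. *Cd33*, a receptor of myeloid cells, read 7.78, 7.68 and 7.60 in WT and 8.11, 7.93 and 7.45 in *Cmah*-null. Its groups overlapped through *Cmah*-null replicate 3, on which it was not detected, and the difference was 0.14 ± 0.18. *Cd22*, the B-cell receptor that in mice prefers Neu5Gc, was detected on WT replicate 2 and *Cmah*-null replicate 3 only, and its 2 other probes on none. Of the 7 B-cell markers measured, 2 were detected on all arrays, 3 on some and 2, *Ms4a1* and *Pax5*, on none, and *Cd37*, which other leukocytes also express, was called higher (0.80 ± 0.25, limma adjusted p = 0.53). Their mean log2 signal was 7.63 to 7.97 in WT and 7.85 to 8.05 in *Cmah*-null, and their part in the *Cd22* values was not tested. *Siglece* and *Siglec5*, receptors of neutrophils and of eosinophils, were detected on no array, and 3 of the 6 eosinophil markers measured, *Epx*, *Il5ra* and *Ccr3*, were not either. All 9 neutrophil and marrow markers measured were detected on every array, with 6 higher and 3 lower in *Cmah*-null. *Mag*, the Siglec of myelin, which the symbols used here do not cover, read 12.06, 11.30 and 11.25 in WT and 11.34, 11.34 and 11.31 in *Cmah*-null, a difference of -0.21 ± 0.23.

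*Cmah*-null replicate 3 set many of the differences. Of the 23 members detected on all arrays, it was the highest of the 6 arrays for 12 and the lowest for 5, which together made 73.9%. Over all 9907 symbols detected on every array the share was 68.9%. For *St3gal3*, *St6gal1*, *St3gal2* and *Neu1* it was the highest array while *Cmah*-null replicates 1 and 2 lay near or below the lowest WT array. The plot of single arrays against the WT mean shows this array at the edge of most members.

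**Figure D3:**
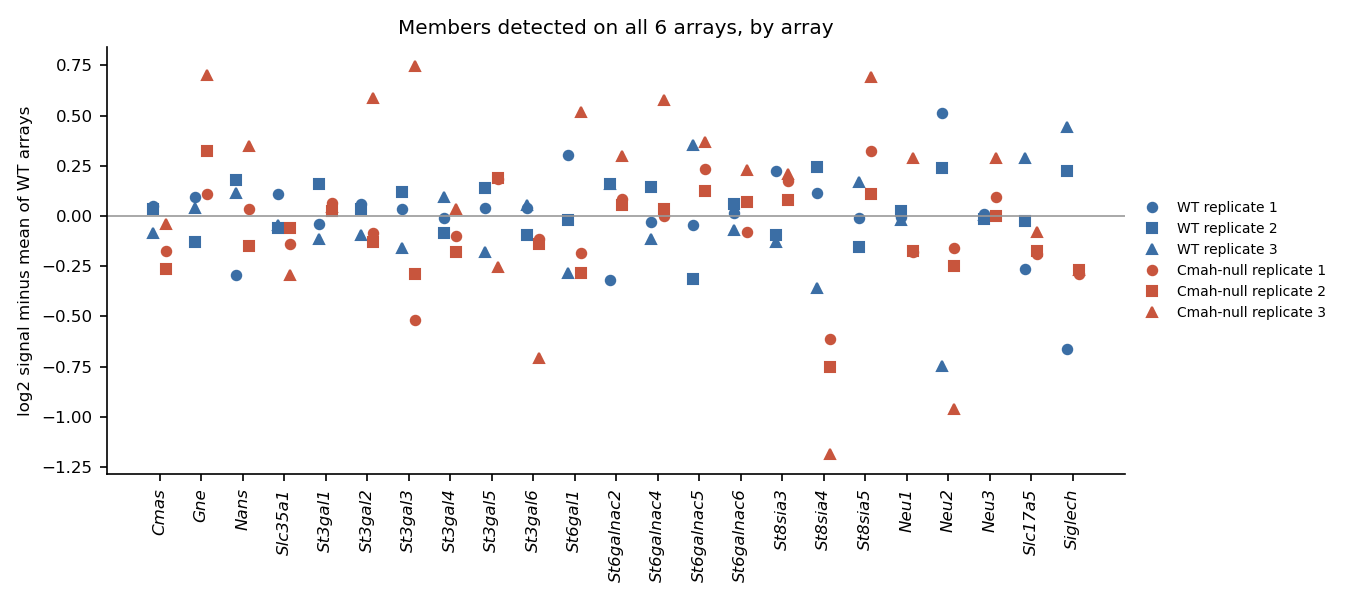
Log2 signal of each array minus the mean of the 3 WT arrays, for the 23 members detected on all 6 arrays. WT is blue, Cmah-null is red, and circles, squares and triangles are replicates 1, 2 and 3. Cmah-null replicate 3 (red triangles) is the highest array for 12 of the 23 members and the lowest for 5.

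Genes that feed, trim and read sialic acid were followed in a list of 30 partner genes, of which 25 were found. Of these, 16 had higher means in *Cmah*-null and 9 lower, with a median difference of 0.05, and limma's smallest adjusted p was 0.48. There were 3 called higher, against 1.61% of all symbols, and 0 called lower, against 1.46%, although 4 had an unadjusted p under 0.05 in limma.

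Of the 3, *Renbp* and *Gfpt2* belong to the supply of amino sugars ahead of *Gne*. *Renbp* encodes the epimerase that interconverts N-acetylglucosamine and N-acetylmannosamine, and read 9.65, 10.05 and 10.32 in WT and 10.85, 10.58 and 11.55 in *Cmah*-null. *Gfpt2* encodes an amidotransferase that opens the hexosamine pathway, and read 9.05, 8.94 and 9.67 in WT and 9.96, 9.86 and 10.74 in *Cmah*-null. For both genes all *Cmah*-null arrays lay above all WT arrays and *Cmah*-null replicate 3 was the highest. The differences were 0.98 ± 0.30 for *Renbp* and 0.97 ± 0.30 for *Gfpt2*, with limma adjusted p of 0.51 and 0.53. Without *Cmah*-null replicate 3 they were 0.71 and 0.69 and still called. *Renbp* lost its call without WT replicate 1 (0.80), and *Gfpt2* lost it without WT replicate 1 (0.89) or WT replicate 2 (0.83). The other 6 genes of this supply, among them *Gfpt1* and *Gnpnat1*, which were detected on no array, differed by -0.13 to 0.12.

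*Ctsa*, the lysosomal protective protein that holds *Neu1* and beta-galactosidase in 1 complex, read 10.84, 10.17 and 10.26 in WT and 11.10, 11.02 and 11.51 in *Cmah*-null. The groups did not overlap, and the difference was 0.79 ± 0.22 (SE, n = 3 and 3; limma adjusted p = 0.48). Its 5 probes disagreed: another probe detected on all 6 arrays differed by 0.15 and a further one, detected on 5, by -0.22, and with the mean of detected probes the difference was 0.24 and not called. The other 5 lysosomal partners differed by -0.10 for *Glb1* to 0.37 for *Psap*, the precursor of the saposins that help to degrade glycolipids, and none was called. The ganglioside core genes *Ugcg*, *B4galt5* and *B3galt4* differed by 0.19, 0.05 and 0.12, and *Casd1*, which O-acetylates sialic acid, was detected on no array. The plot of partner genes places the 3 called genes against the rest.

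**Figure D4:**
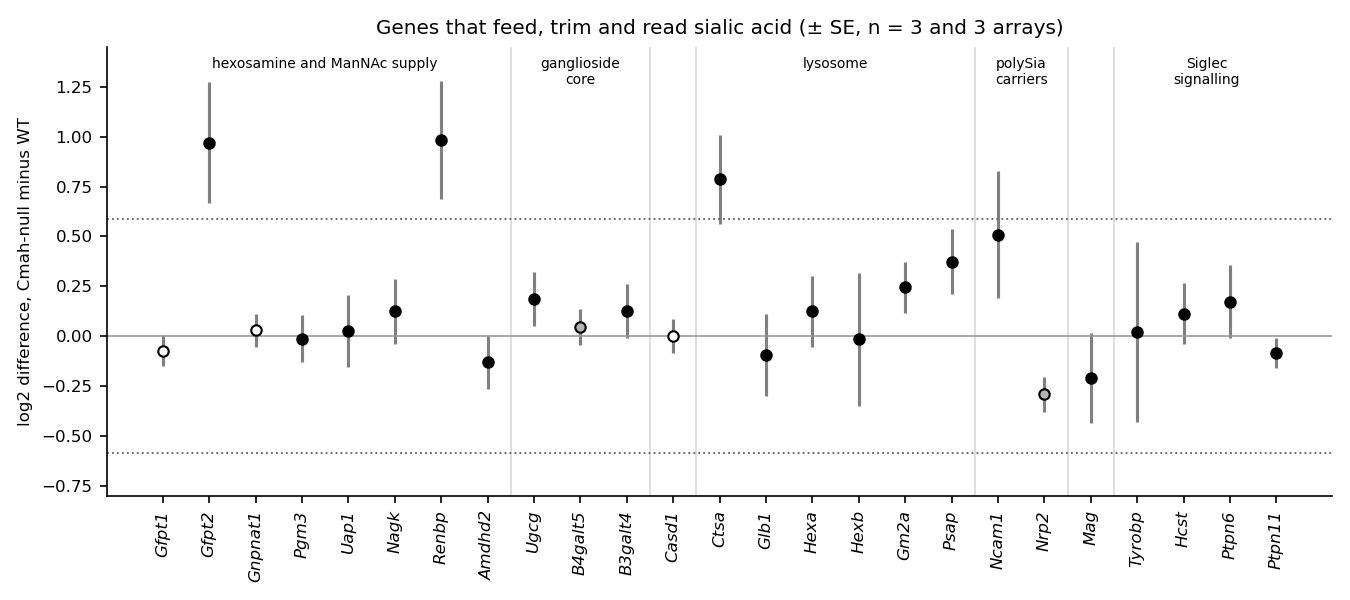
Difference between the group means of 25 partner genes on the log2 scale, Cmah-null minus WT, with its limma standard error (3 arrays per group). Dotted lines mark 1.5-fold in each direction, filled points were detected on all 6 arrays, grey on some and open on none; the unlabelled columns hold Casd1 and Mag. Gfpt2, Renbp and Ctsa lie above the upper line and none lies below the lower one.

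The processing changed the sign of some members but not of *Siglec1* or *St8sia4*. Of the 26 members given in full, 12 kept the sign of their difference under all 14 alternatives. A further 5 changed it under median scaling alone. That scaling raised the median difference over probes detected on 6 arrays, but not every such probe: *Neu3* went from 0.13 to 0.10. The other 9 changed it under at least 1 of the other 13 alternatives, and of these 9 *Nanp* was detected on no array. Under median scaling the median difference of the members detected on at least 3 arrays went from 0.07 to 0.31. The median over probes detected on 6 arrays rose too, as given beside *St8sia4*. *Gne* at 0.70, *St8sia5* at 0.72, *St6galnac2* at 0.63 and *Siglec1* at 0.80 were then called higher, and none was called lower. Less the median of probes detected on 6 arrays, *Gne*, *St8sia5* and *St6galnac2* were 0.40, 0.42 and 0.34. *Siglec1* was detected on 3 arrays only, so that median does not apply to it, and it was 0.81 with the deposited values. The plot of alternatives gives each member's values.

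**Figure D5:**
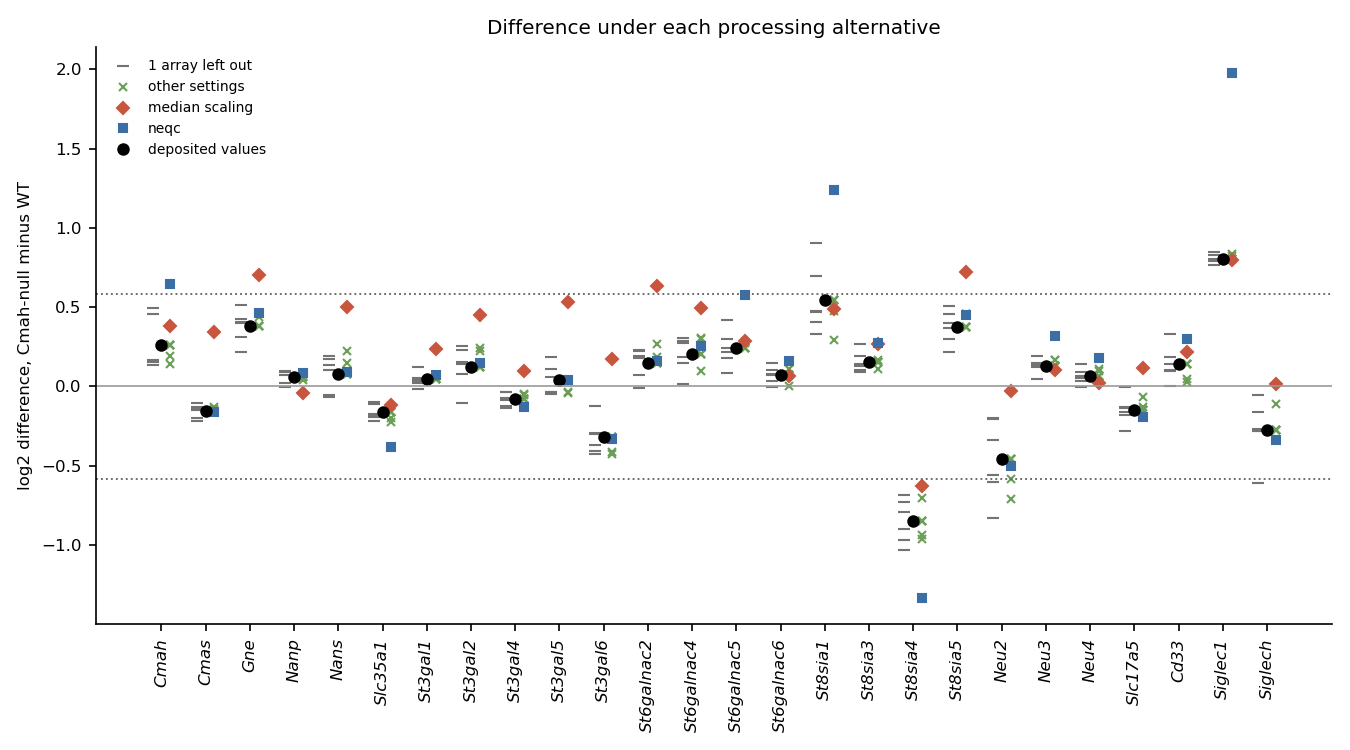
Log2 difference, Cmah-null minus WT, of the 26 members given in full, from the deposited values (black) and under each processing alternative: 1 array left out (grey bars), background correction and normalization by neqc (blue), median scaling (red) and the others (green). Dotted lines mark 1.5-fold. Siglec1 stays between 0.77 and 1.98 and St8sia4 between -1.33 and -0.63, and 14 of the 26 cross 0.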

How the data were processed

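Total RNA from cochlear tissue was labelled with biotin and hybridized to Illumina MouseRef-8 v2 arrays. As deposited, the raw table holds intensity values, the average bead signal per probe without normalization, with bead numbers. Its detection p-value per probe is deposited beside them. The deposited log2 values were made by the authors, and were checked to equal quantile-normalized log2 intensities (largest difference 5e-07). A further 12 columns that repeat per-sample values, and the authors' columns of fold change and test, were not used. Members, partner genes, marker lists and the rule for which members are given in full (the 6 synthesis genes and the 20 others with the largest change among those detected on at least 3 arrays) were chosen with earlier results of these data known.

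Genotypes were compared on the log2 values of all 25697 probes by the two-sided test of limma (version 3.58.1, under R 4.3.3; lmFit, then eBayes), with genotype as the only term, and the script was tested on simulated data. P-values were adjusted by Benjamini and Hochberg's method across the whole array. All 37 members matched the RefSeq gene table. Marker lists were compared by exact permutation of the 6 arrays. As the lists were chosen with earlier results known, these p-values are descriptive only. Alternatives were neqc (offset 16), scaling to a common median, leaving out probes detected on under 3 arrays, blocks for replicate number and bead number, averaging *Cmah*-null replicates 1 and 2, a trended and robust prior, the mean of detected probes per gene and each array left out. The number of arrays limits the precision.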

Additional observations from a re-analysis of the deposited data

How the results depend on the processing

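Under all 14 alternatives 0 members had an adjusted p under 0.05 in limma, where 3 had an unadjusted p under 0.05 with the deposited values. The count of called members was 2 in the main comparison, 3 with neqc (*St8sia2* in addition), 4 with median scaling (*Siglec1*, *Gne*, *St6galnac2* and *St8sia5*), 2 to 4 with 1 array left out, and 2 under each of the others. It was 4 without WT replicate 1 (*Siglech* and *St8sia1* in addition) and 3 without WT replicate 3 (*Neu2* in addition). The median difference of members detected on at least 3 arrays was 0.07 as deposited, 0.31 with median scaling, and -0.0039 to 0.13 with 1 array left out, the lowest without *Cmah*-null replicate 3. The replicate block gave 2 called members, 0 at the adjusted threshold and a median of 0.07. Deviations from the group means correlated over probes at 0.02, -0.17 and 0.01 for same-numbered arrays, and at -0.10 to 0.17 for differently numbered ones. With means of only 3 arrays these correlations cannot decide whether the numbers pair the samples. With the replicate block the standard error of *St8sia4* was 0.10 in place of 0.22, and that of *Siglec1* 0.09 in place of 0.08.

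Some uncalled members changed sign. Under median scaling the median difference over probes detected on 6 arrays was 0.30 in place of 0.03. There *Cmas* was 0.34, *St3gal6* 0.17, *Slc17a5* 0.12, *St3gal4* 0.094, *Siglech* 0.015 and *Nanp* -0.045. Single probes did not all move by that median. Less the median, *Cmas* was 0.04. *St3gal6*, *Slc17a5*, *St3gal4* and *Siglech* were then -0.13, -0.18, -0.21 and -0.28, with the sign they have in the deposited values. *St3gal5* was -0.044 with the bead number block and -0.034 with *Cmah*-null replicates 1 and 2 averaged. With 1 array left out, ranges that crossed 0 were -0.051 to 0.19 for *St3gal5*, -0.067 to 0.19 for *Nans*, -0.012 to 0.23 for *St6galnac2*, -0.014 to 0.12 for *St3gal1*, -0.0002 to 0.33 for *Cd33*, -0.0012 to 0.094 for *Nanp* (background readings), -0.11 to 0.25 for *St3gal2*, -0.0067 to 0.15 for *St6galnac6* and -0.0012 to 0.14 for *Neu4*. The cause of the changes with an array left out was not tested. Probes near background allow only bounds (*Siglec1*) or no fold for the level (*St8sia2*, *Nanp*), and neqc, which subtracts background, gave larger differences there (1.98 for *Siglec1*).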
